A study of Mus musculus with 12 samples.

Results

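The growth arrest-specific (Gas) genes examined here are Gas1, Gas2, Gas5, Gas6, Gas7 and Pmp22, the last of which was first named Gas3. They and the lists of related genes below were chosen by name, with earlier results of these data known. The members were matched by symbol, and all 6 were found among the 49671 genes of the count files and among the 18668 genes tested. The counts come from RNA-seq of 12 libraries, 3 in each of 4 groups, of the immortalized mouse embryo fibroblast line NIH 3T3. Cells were plated in 10% FBS and transfected with a control siRNA or with 1 siRNA against Lap2 (gene Tmpo), which targets both the membrane-anchored and the nucleoplasmic isoforms. Effects of the Lap2 siRNA other than through Lap2 were not tested in these libraries. Cells with the control siRNA are called control cells. Each siRNA was examined in serum-starved cells, kept overnight in 0.3% FBS, and in serum-stimulated cells, which received 15% FBS for 45 min after starvation. The libraries of a group are called triplicates in the sources, which do not say that they came from separate cultures, so that the p-values measure the spread between these libraries, which may be technical. All groups are transfected cells of a single line, and a change in the number of cells of a kind and a change in RNA per cell cannot be told apart in such bulk samples.

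The Gas genes were isolated as transcripts that are abundant in serum-starved NIH 3T3 cells and scarce in growing ones, and the name refers to that screen rather than to a shared protein family. Gas6 is a secreted, vitamin K-dependent ligand of the TAM receptor tyrosine kinases Tyro3, Axl and Mertk. Gas1 is a lipid-anchored surface protein that binds Hedgehog ligands together with Cdon and Boc, and it blocks entry into S phase when overexpressed. Pmp22 is a membrane-spanning glycoprotein best known from the myelin of peripheral nerves. Gas2 and Gas7 act on the cytoskeleton, Gas2 by linking actin filaments and microtubules and Gas7 through a membrane-bending F-BAR domain. Gas5 is a non-coding RNA whose introns carry small nucleolar RNAs (snoRNAs), and its spliced RNA starts with a terminal oligopyrimidine (TOP) sequence, the feature that ties the translation of ribosomal protein mRNAs to growth conditions.

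Total counts ranged from 18026298 to 26265253 per library. Tmpo, the siRNA target, was at 2822 ± 57.0 (SD, n = 3) normalized counts in control cells under starvation and at 3175 ± 136 after serum, and 1083 ± 97.3 and 706 ± 87.0 in the Lap2-depleted ones. Normalized counts are reads scaled by TMM (trimmed mean of M values, which assumes that most genes do not change) to a common library size. The fibroblast markers reached 100 normalized counts for 9 of 9 genes, and their summed level ranged from 834000 to 862300 in starved control libraries and from 514100 to 621300 in serum-starved Lap2-depleted ones, and from 868600 to 953200 and 619300 to 691000 after serum. The sum is dominated by collagens and Fn1. With Lap2 siRNA in 0.3% FBS, 6 of the 9 markers were lower (Col1a1, Col1a2, Col3a1, Vim, Pdgfra and Thy1), Fn1 and S100a4 were higher, and Pdgfrb did not pass, and in 15% FBS 7 were lower and 0 higher. Of all genes tested, 18.6% were lower and 17.8% higher in 0.3% FBS, and 12.1% and 11.4% in 15% FBS. The part of the marker shifts in the members' changes was not tested. None of the 11 markers of other cell types (0 of 11) reached 100 normalized counts in any group, their sum ranged from 50.5 to 97.0, and Myod1 was at 0 in all groups. Replicate 1 of the serum-starved Lap2-depleted group stood apart from replicates 2 and 3 on component 4 of a principal component analysis (43.9 against -25.3 and -27.4). Values with and without it are given for Gas7 and, in part, for Gas5.

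The stretches before the RefSeq start sites of Gas6 and Gas1 are shown because Gas6 changed most with Lap2 siRNA and Gas1 changed most with serum in cells with control siRNA. They are from RefSeq on GRCm38.p6 (the mm10 assembly), written 5′ to 3′ on the strand of the gene. Both genes lie on the minus strand. Their RefSeq starts, 13494535 for Gas6 and 60177535 for Gas1, lie upstream of the starts of the counted genes, 13494490 and 60177365. Distances below are counted from the RefSeq starts. In Gas6 (chr8:13494536-13494785) the capitals mark GC boxes, the letters GGGCGG on either strand, and in Gas1 (chr13:60177536-60177785) they mark a CCAAT box, the letters CCAAT on either strand.
Gas6: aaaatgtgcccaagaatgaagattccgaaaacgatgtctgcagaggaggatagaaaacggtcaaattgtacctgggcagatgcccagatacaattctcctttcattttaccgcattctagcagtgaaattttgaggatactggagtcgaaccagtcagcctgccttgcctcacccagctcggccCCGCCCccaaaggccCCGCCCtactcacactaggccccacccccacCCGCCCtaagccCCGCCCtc
Gas1: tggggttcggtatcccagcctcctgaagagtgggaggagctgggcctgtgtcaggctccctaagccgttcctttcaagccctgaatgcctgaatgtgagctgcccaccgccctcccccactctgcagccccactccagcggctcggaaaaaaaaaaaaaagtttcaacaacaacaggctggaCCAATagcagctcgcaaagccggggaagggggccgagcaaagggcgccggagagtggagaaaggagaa

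For Gas5, whose second RefSeq start is the one with the TOP-like sequence, the window from 150 bases before to 50 after that start (chr1:161035016-161035215, plus strand) is shown with a cAMP response element (CRE, TGACGTCA, the same letters on both strands) in capitals.
Gas5: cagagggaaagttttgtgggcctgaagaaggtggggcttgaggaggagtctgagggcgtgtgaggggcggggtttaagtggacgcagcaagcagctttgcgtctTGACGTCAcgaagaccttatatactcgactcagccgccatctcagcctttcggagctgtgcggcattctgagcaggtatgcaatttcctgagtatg

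The 10 RefSeq windows of 5 members (300 bases each, 250 before and 50 after a start, with Gas7 named only) were searched on both strands for 8 motifs. GC boxes were found in 7 of the 10 windows, against 35.7% of all 32851 mouse windows, and CCAAT boxes in 4, against 37.4%. Gas6 held 4 GC boxes, at 66, 51, 20 and 8 bases before its start, and Gas1 held a GC box at 144 beside its CCAAT box at 68, none of which overlapped another match. The CRE was found in 1 window, that of Gas5, 46 bases before the start, against 1.79% of all windows. The CArG box of serum response factor (named only) was in 0 of the 10 windows, against 1.63%, and the same was true of the E-box CACGTG (7.15%), the AP-1 site TGANTCA (7.81%) and the TATA box TATAAA (13.6%). The TEAD site CATTCC was in 1 window, of Pmp22 (14.7%). These are matches of letters, and no match says only that the letters are not in this window.

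The first 25 bases from the start of Gas5 and of 3 other snoRNA host genes are compared because the TOP sequence lies there, with the leading pyrimidines of transcripts that start with C in capitals.
Gas5: CTTTCggagctgtgcggcattctga
Snhg8: CTCTTTggctgcgatccgcctacga
Snhg1: CTCatttttccttgttcggggtaag
Snhg17: gtgaagaccacagtttcctgtcgcg
A start with C and at least 4 further pyrimidines, 5 in all, was found in 2.51% of all windows, in the second Gas5 window and in 2 of 12 other host genes with a window, Snhg7 and Snhg8. Snhg1 had a run of 3. The count depends on the exact base annotated as the start. In Snhg12 and Snhg18 a C lies directly before the RefSeq start and pyrimidines follow, so a start at that C would also count.

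The question put to these genes is whether 45 min of serum moved them in serum-starved NIH 3T3 cells, and whether Lap2 siRNA did. No group was of growing cells, so the levels of these genes in starved against growing cells were not measured. A serum response near 0 here is a statement about 45 min only. With Lap2 siRNA in serum-starved cells, all 6 passed the test (edgeR's quasi-likelihood F-test, p adjusted by Benjamini-Hochberg over the 18668 genes, threshold 0.05). Of these, 5 fell (Gas6, Gas1, Gas7, Pmp22 and Gas5) and 1 rose (Gas2), where 18.6% of all genes tested were lower and 17.8% higher. Gas5 lost its call in 8 of 20 alternatives, which leaves 5 of 6. In 15% FBS, 2 fell (Gas6 and Gas7) and 2 rose (Gas2 and Gas5), beside 12.1% of all genes lower and 11.4% higher, and neither Gas1 nor Pmp22 passed. Serum lowered 2 of 6 in control cells (Gas1 and Pmp22) and raised 0, beside 13.9% and 15.6% of all genes, and with total counts it lowered 5, as many as passed for Lap2 siRNA in 0.3% FBS with that scaling. In Lap2-depleted cells serum raised 2 (Gas6 and Gas5) and lowered 1 (Gas2), beside 18.3% and 14.9%. The interaction, which is the difference between the serum responses of the siRNAs and equally between the siRNA effects in the serum conditions, was positive for 4 (Gas6, Gas5, Gas1 and Pmp22) and negative for Gas2, beside 7.09% and 6.51% of all genes. These 5 became 2 without replicate 2 of the serum-starved control group, and 3 without replicate 3 of that group or replicate 1 or 2 of the serum-stimulated Lap2-depleted group.

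The median log2FC (log2 fold change) of the members was -0.38 with Lap2 siRNA in 0.3% FBS and -0.06 in 15% FBS, where the medians of all genes tested were 0.01 and 0.02. For serum stimulation the medians were -0.15 in control and 0.03 in Lap2-depleted cells, where the medians of all genes were -0.01 and 0.00. Serum stimulation and Lap2 siRNA in 0.3% FBS share the starved control libraries, so a shift of those 3 libraries moves both comparisons. Scaling matters for changes of this size. Total counts in place of TMM moved the median log2FC of all genes by -0.21 and -0.23 for serum stimulation with control and with Lap2 siRNA, and by 0.11 for Lap2 siRNA in 0.3% FBS, while upper-quartile scaling moved it by -0.11 for serum stimulation with Lap2 siRNA. With total counts, the share of higher genes among those called went from 52.9% to 21.8% and from 55.2% to 21.8% for serum stimulation with control and Lap2 siRNA, and from 48.9% to 64.0% and from 48.6% to 67.4% for Lap2 siRNA in 0.3% and 15% FBS. Upper-quartile scaling gave 36.0% and 37.7% for the serum stimulations. A member's change is therefore stated relative to the typical gene.

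**Figure D1:**
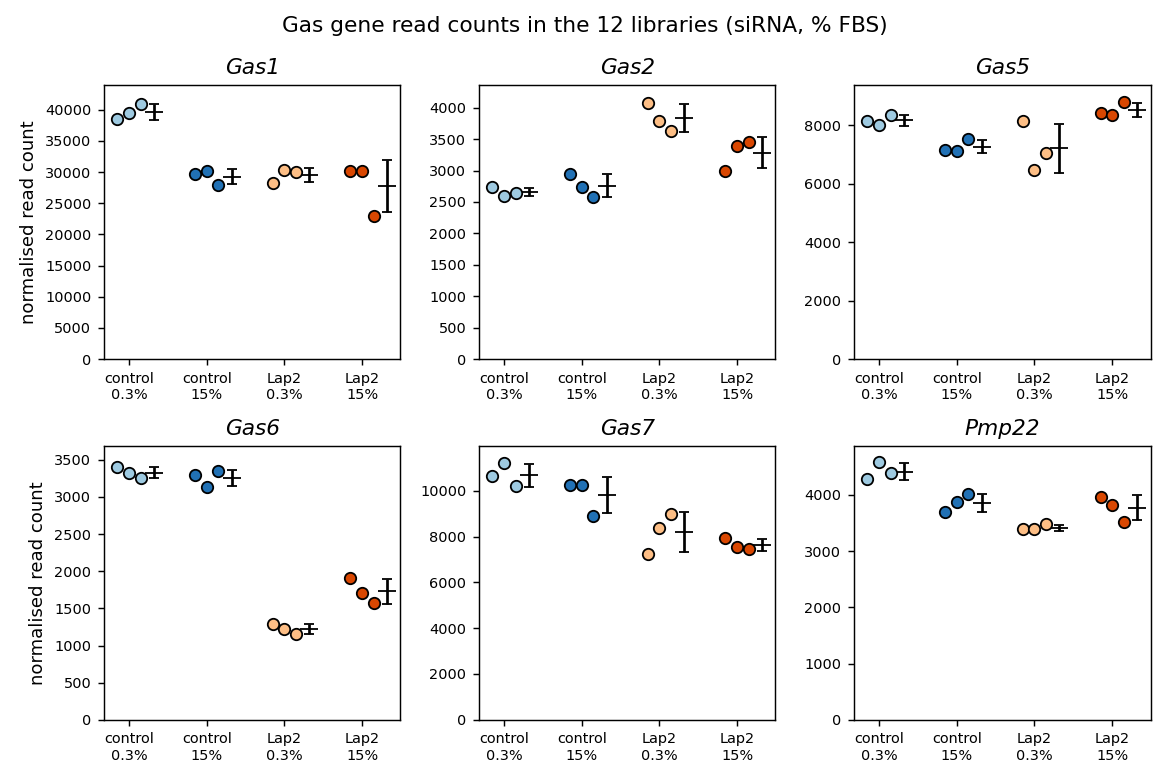
Normalized counts (vertical axes, from 0) of each Gas gene in the 12 libraries, 3 points per group of siRNA and FBS, with the mean and SD of each group beside them. Gas6 lay between 1161 and 1909 in the 6 Lap2-depleted libraries and between 3135 and 3402 in the 6 control ones.

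**Figure D2:**
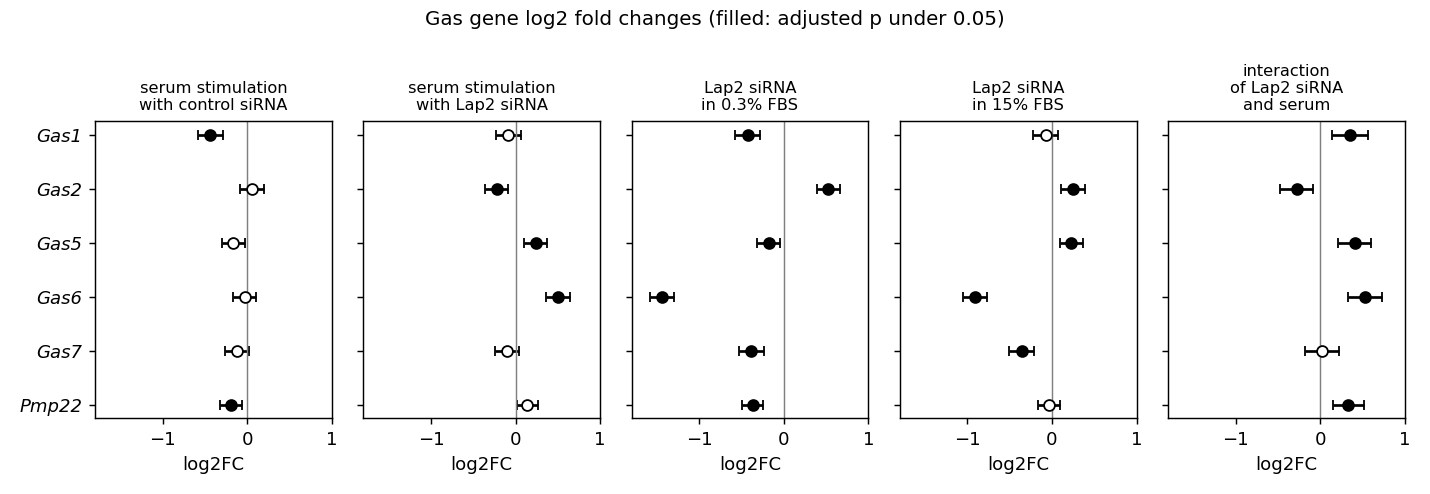
log2FC (horizontal axes) of each Gas gene in the 5 comparisons, with 95% confidence intervals from edgeR and filled points where the adjusted p was under 0.05. Gas6 had the largest change, -1.44 with Lap2 siRNA in 0.3% FBS, and Gas2 lay on the other side of 0 in that comparison.

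Gas6, the secreted ligand, fell furthest with Lap2 siRNA. It is ENSMUSG00000031451, on the minus strand of chromosome 8 from 13465374 to 13494490 (mm10), with 15 exons. In control cells it had 3402, 3318 and 3262 normalized counts in 0.3% FBS and 3290, 3135 and 3347 after serum. With Lap2 siRNA it had 1285, 1221 and 1161 in 0.3% FBS and 1909, 1709 and 1577 after serum. The 6 Lap2-depleted libraries all lay below the 6 control ones, and within Lap2-depleted cells the serum-stimulated libraries all lay above the serum-starved ones. The mean was 36.7% of control in serum-starved cells (log2FC -1.44, standard error 0.07, edgeR adjusted p = 2.7e-17), and 5.64% of all genes tested had a lower log2FC. In serum-stimulated cells it was 53.2% of control (log2FC -0.91, standard error 0.07, adjusted p = 4.1e-12).

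Serum left no detectable change of Gas6 in control cells, where the log2FC was -0.03 with a 95% interval from -0.17 to 0.11 (adjusted p = 0.80, n = 3 libraries a group in the edgeR fit). In Lap2-depleted cells Gas6 rose 1.42-fold with serum (log2FC 0.50, adjusted p = 6.6e-07). The difference of these responses was 0.53 (95% interval 0.33 to 0.73, adjusted p = 0.00017). With total counts in place of TMM the serum response in control cells became -0.24 (adjusted p = 0.0042, with a range of 0.0042 to 0.99 over the alternatives) and that in Lap2-depleted cells 0.27, and Gas6 kept its other calls under all alternatives.

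Of the 7 genes listed with Gas6, 5 were lower with Lap2 siRNA in 0.3% FBS (median log2FC -0.34, beside 18.6% of all genes lower) and 5 in 15% FBS (median -0.37, beside 12.1%), and 0 were higher. These were the receptors Axl, Mertk and Tyro3, Pros1 (protein S, the other vitamin K-dependent TAM ligand) and Ggcx, the carboxylase that modifies both ligands. The vitamin K reductases Vkorc1 and Vkorc1l1 did not pass.

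Pros1 had 1328 ± 59.9 (SD, n = 3) normalized counts in starved control cells and 561 ± 75.3 in Lap2-depleted ones (log2FC -1.24, adjusted p = 3e-14). After serum it had 1424 ± 7.75 and 869 ± 25.4 (log2FC -0.71, adjusted p = 1.1e-08). Pros1, like Gas6, rose with serum in Lap2-depleted cells (log2FC 0.63, adjusted p = 1.4e-07), with an interaction of 0.53 (adjusted p = 0.00091).

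Axl had 17220 ± 289 normalized counts in starved control cells and 13650 ± 753 in Lap2-depleted ones (log2FC -0.34, adjusted p = 1.9e-05). After serum it had 18640 ± 592 and 14450 ± 275 (log2FC -0.37, adjusted p = 1.1e-05). Mertk fell from 549 ± 64.9 to 284 ± 11.5 in 0.3% FBS (log2FC -0.96, adjusted p = 2.6e-09) and from 714 ± 29.8 to 485 ± 63.8 in 15% FBS (log2FC -0.56, adjusted p = 3.4e-05). Mertk rose with serum with either siRNA, by 0.37 and 0.77, and with control siRNA this call was lost with total counts (0.17, adjusted p = 0.17). Tyro3 fell by 0.42 in 0.3% FBS (adjusted p = 0.0027) and by 0.39 in 15% FBS (adjusted p = 0.0086), the latter lost without replicate 1 of the serum-stimulated control group (-0.33, adjusted p = 0.061) or replicate 2 of the serum-stimulated Lap2-depleted group (-0.31, adjusted p = 0.077). In each of these pairs of groups the libraries of Axl, Mertk, Tyro3 and Pros1 did not overlap.

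Gas1, the Hedgehog co-receptor, was the member that serum lowered most. It is ENSMUSG00000052957, on the minus strand of chromosome 13 from 60174405 to 60177365, and is a gene of 1 exon. Control siRNA treated cells had 38474, 39421 and 40987 normalized counts of Gas1 in 0.3% FBS and 29668, 30251 and 27926 after serum. Lap2-depleted cells had 28181, 30303 and 29942 in 0.3% FBS and 30225, 30139 and 22949 after serum. The starved control libraries were the high ones, and the other 3 groups overlapped each other. Gas1 thus fell to 73.9% with serum in control cells (log2FC -0.44, standard error 0.07, edgeR adjusted p = 1.3e-05), and 21.1% of all genes had a lower log2FC. With Lap2 siRNA in 0.3% FBS it fell to 74.4% (log2FC -0.43, adjusted p = 1.6e-05), a comparison with the same control libraries.

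In Lap2-depleted cells the serum response of Gas1 was -0.09 (95% interval -0.24 to 0.06, adjusted p = 0.42), and Lap2 siRNA in 15% FBS gave -0.08 (-0.23 to 0.07, adjusted p = 0.53). Both values turned to 0.02 and 0.03 without replicate 3 of the serum-stimulated Lap2-depleted group, the library at 22949. Total counts in place of TMM gave a serum response of -0.32 in Lap2-depleted cells (adjusted p = 0.00066, with a range of 0.00066 to 0.84 over the alternatives) and turned the effect of Lap2 siRNA in 15% FBS to 0.01. The interaction was 0.35 (95% interval 0.14 to 0.56, adjusted p = 0.02). It no longer passed without replicate 2 or 3 of the serum-starved control group (0.32 and 0.30), replicate 3 of the serum-stimulated control group (0.32), or replicate 1 or 2 of the serum-stimulated Lap2-depleted group (0.29 and 0.29).

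Of 12 genes of Hedgehog reception listed with Gas1, 10 were tested. With Lap2 siRNA, 6 were lower in 0.3% FBS (Boc, Cdon, Gli1, Gli2, Sufu and Smo) and 0 higher, with a median log2FC of -0.36, beside 18.6% of all genes lower, and 4 were lower in 15% FBS (Boc, Cdon, Gli1 and Gli2), with a median of -0.19, beside 12.1%. Boc and Cdon are the surface proteins that present Hedgehog together with Gas1. Boc had 1439 ± 112 (SD, n = 3) normalized counts in starved control cells and 331 ± 36.2 in Lap2-depleted ones (log2FC -2.12, adjusted p = 7e-17), and after serum it had 1398 ± 37.5 and 835 ± 171 (log2FC -0.75, adjusted p = 4.6e-07). Cdon had 3847 ± 313 and 1883 ± 189 in 0.3% FBS (log2FC -1.03, adjusted p = 7.9e-13) and 4156 ± 118 and 3503 ± 341 after serum (log2FC -0.25, adjusted p = 0.014).

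The last of these calls of Cdon was lost without replicate 2 of the serum-stimulated control group (-0.23, adjusted p = 0.063), without replicate 3 of the serum-stimulated Lap2-depleted group (-0.18, adjusted p = 0.11) and with total counts (-0.16, adjusted p = 0.11). Boc and Cdon rose with serum in Lap2-depleted cells, by 1.33 (adjusted p = 7.1e-12) and 0.90 (adjusted p = 2.1e-11), and their interactions were 1.38 and 0.78. In control cells their serum responses were -0.04 (95% interval -0.24 to 0.15, adjusted p = 0.81) for Boc and 0.11 (-0.04 to 0.26, adjusted p = 0.30) for Cdon. Ptch1, the receptor and a transcriptional target of the pathway, fell by 0.35 with serum in control cells (adjusted p = 0.041), a call lost when any of the 6 libraries compared was left out (-0.38 to -0.31) and with DESeq2 (-0.35). In Lap2-depleted cells Ptch1 fell by 0.36 (adjusted p = 0.033), a call lost without replicate 2 or 3 of the serum-starved group (-0.26 and -0.32), replicate 2 or 3 of the serum-stimulated group (-0.32 and -0.24), and in the fit of only the 2 groups (-0.37). Its log2FC with Lap2 siRNA was 0.16 in each serum condition (adjusted p = 0.35 and 0.46). Gli1, the pathway's other usual target gene, had few reads. It had 63.7 ± 15.4 normalized counts in starved control cells and 14.2 ± 8.09 in Lap2-depleted ones (log2FC -2.15, edgeR adjusted p = 2.2e-06). After serum it had 61.0 ± 13.4 and 7.78 ± 2.51 (log2FC -2.95, adjusted p = 1.9e-07). Gli1 was named after its values were seen.

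Pmp22, the membrane glycoprotein, was highest in starved cells with control siRNA, as Gas1 was, and its changes were smaller. It is ENSMUSG00000018217, on the plus strand of chromosome 11 from 63128982 to 63159547, with 8 merged exons. Pmp22 had 4273, 4580 and 4382 normalized counts in serum-starved and 3697, 3866 and 4018 in stimulated control cells. With Lap2 siRNA it had 3388, 3383 and 3475 in 0.3% FBS and 3963, 3815 and 3523 after serum. The starved control libraries were again the highest, and the serum-starved Lap2-depleted ones the lowest. Serum lowered Pmp22 to 87.5% in control cells (log2FC -0.19, standard error 0.06, edgeR adjusted p = 0.016), and Lap2 siRNA lowered it to 77.4% in 0.3% FBS (log2FC -0.37, adjusted p = 1e-05).

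The serum call of Pmp22 was lost without replicate 2 or 3 of the serum-starved control group (-0.15 and -0.19) or replicate 1 of the serum-stimulated one (-0.16). In Lap2-depleted cells the serum response was 0.14 (95% interval 0.01 to 0.27, adjusted p = 0.083), which turned to -0.09 with total counts and passed without replicate 3 of the serum-stimulated Lap2-depleted group (0.18, adjusted p = 0.046). In 15% FBS, Lap2 siRNA gave -0.04 (95% interval -0.16 to 0.09, adjusted p = 0.77), or 0.05 with total counts. The interaction was 0.33 (adjusted p = 0.0079), lost without replicate 2 of the serum-starved control group (0.27, adjusted p = 0.063).

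The relatives of Pmp22, the epithelial membrane proteins, had another pattern. Of the 4 genes, 3 were tested, and Emp1 and Emp2 rose with serum with either siRNA, unlike Pmp22. Emp1 rose by 0.79 in control cells (from 9755 to 16810 normalized counts, adjusted p = 1.2e-12) and by 0.72 in Lap2-depleted cells (adjusted p = 1.4e-11). Emp2 rose by 0.30 and 0.33, or by 0.09 and 0.10 with total counts, with which neither passed. Lap2 siRNA lowered Emp2 by 0.59 and 0.56 and Emp3 by 0.51 and 0.37 in 0.3% and 15% FBS (adjusted p of 7.8e-05 or less), where Pmp22 fell in 0.3% FBS and did not pass in 15% FBS.

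**Figure D3:**
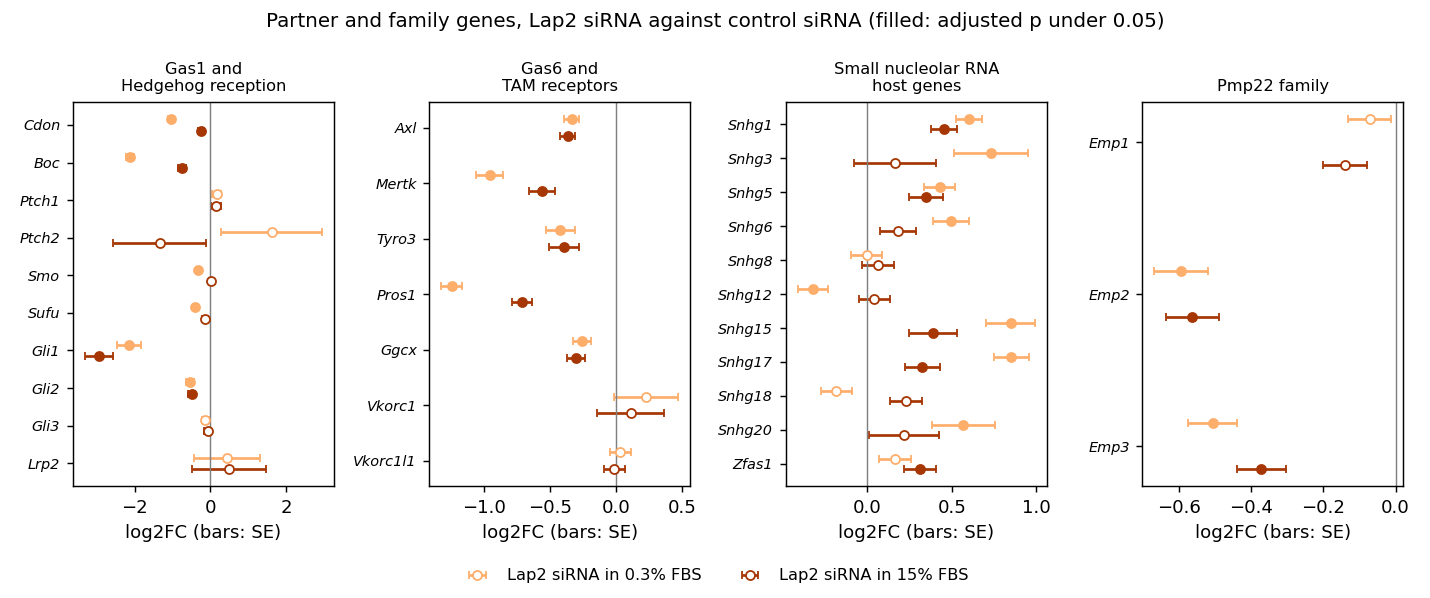
log2FC (horizontal axes, bars are standard errors) for Lap2 siRNA against control siRNA in 0.3% and 15% FBS of every tested gene in the lists of Hedgehog reception, TAM signalling, snoRNA host genes and the Pmp22 family, with filled points where the edgeR adjusted p was under 0.05. Gli1 (-2.15 and -2.95, with few reads), Boc (-2.12 and -0.75) and Pros1 (-1.24 and -0.71) lay to the left in both conditions, and Snhg1 (0.60 and 0.45) to the right.

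Gas2, which links actin and microtubules and is cleaved by caspases during apoptosis, was the member that rose with Lap2 siRNA in both serum conditions. It is ENSMUSG00000030498, on the plus strand of chromosome 7 from 51862015 to 51994975, with 16 merged exons. Gas2 had 2734, 2595 and 2645 normalized counts in serum-starved and 2944, 2743 and 2586 in stimulated control cells. With Lap2 siRNA it had 4079, 3794 and 3628 in 0.3% FBS and 2996, 3397 and 3447 after serum. The 6 Lap2-depleted libraries all lay above the 6 control ones. Gas2 was 1.44-fold higher in 0.3% FBS (edgeR log2FC 0.53, standard error 0.07, adjusted p = 1e-07) and 1.19-fold higher in 15% FBS (log2FC 0.25, adjusted p = 0.0058).

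The call in 15% FBS was lost without replicate 3 of the serum-stimulated Lap2-depleted group (0.20, adjusted p = 0.061). With serum Gas2 fell by 0.22 in Lap2-depleted cells (adjusted p = 0.009), lost without replicate 1 of the serum-stimulated Lap2-depleted group (-0.16, adjusted p = 0.10). In control cells the serum response of Gas2 was 0.05 (95% interval -0.08 to 0.19, adjusted p = 0.63), and it turned to -0.15 with total counts and -0.04 with upper-quartile scaling. The interaction of -0.28 passed narrowly (adjusted p = 0.049). It did not pass with the replicate number as a block (-0.28, adjusted p = 0.056), nor without 6 of the 12 libraries in turn, which were replicates 2 and 3 of the serum-starved control group (-0.29 and -0.30), replicates 1 and 2 of the serum-stimulated control group (-0.24 and -0.28) and replicates 1 and 2 of the serum-stimulated Lap2-depleted group (-0.22 and -0.30).

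Among the relatives of Gas2 and the calpains, which are calcium-dependent proteases, 8 of 9 genes were tested, and 2 rose (Gas2l3 and Dst) and 3 fell (Gas2l1, Capn1 and Capns1) with Lap2 siRNA in 0.3% FBS, beside 17.8% of all genes higher and 18.6% lower. The groups of Dst in 0.3% FBS overlapped, at 4102 to 5883 normalized counts in Lap2-depleted and 4436 to 4567 in control libraries. In 15% FBS 1 rose (Gas2l3) and 2 fell (Capn1 and Capns1), beside 11.4% and 12.1%. Gas2l3, which binds actin and microtubules like Gas2, had 324 ± 36.2 (SD, n = 3) normalized counts in starved control cells and 693 ± 133 in Lap2-depleted ones (log2FC 1.09, adjusted p = 1.2e-09). After serum it had 461 ± 43.9 and 591 ± 12.3 (log2FC 0.35, adjusted p = 0.016), a call lost without replicate 3 of the serum-stimulated control group (0.29) or of the serum-stimulated Lap2-depleted group (0.33). Gas2l1 fell by 0.31 in 0.3% FBS (adjusted p = 0.00081), opposite in direction to Gas2l3. The small calpain subunit Capns1 fell by 0.50 in 0.3% and by 0.40 in 15% FBS.

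Gas7, the F-BAR protein, was lower with Lap2 siRNA by nearly the same amount in both serum conditions. It is ENSMUSG00000033066, on the plus strand of chromosome 11 from 67455437 to 67688990, with 21 merged exons. Gas7 had 10661, 11198 and 10190 normalized counts in serum-starved and 10270, 10232 and 8913 in stimulated control cells. Lap2-depleted cells had 7232, 8392 and 8974 in 0.3% FBS and 7929, 7528 and 7463 after serum. Within each serum condition the groups did not overlap between the siRNAs, and within each siRNA the serum conditions did overlap. The mean was 76.8% of control in 0.3% FBS (edgeR log2FC -0.38, standard error 0.07, adjusted p = 4.4e-05) and 77.9% in 15% FBS (log2FC -0.36, adjusted p = 2e-04).

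The interaction of Gas7 was 0.02 with a 95% interval of -0.18 to 0.23 (adjusted p = 0.93), and its sign changed with DESeq2 and with total counts. The serum response of Gas7 was -0.12 (95% interval -0.27 to 0.02, adjusted p = 0.21) with control siRNA and -0.10 (-0.25 to 0.04, adjusted p = 0.30) with Lap2 siRNA. Both passed with total counts (-0.33 and -0.33) and with upper-quartile scaling (-0.22 and -0.21). Replicate 1 of the serum-starved Lap2-depleted group, which stood apart, was the lowest for Gas7. Without it the effect of Lap2 siRNA in 0.3% FBS was -0.28 (adjusted p = 9.5e-05), the serum response in Lap2-depleted cells was -0.20 and passed (adjusted p = 0.0049), and the interaction was -0.09 (adjusted p = 0.50).

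Of 18 other F-BAR and related genes, 17 were tested, and 7 were lower and 1 higher with Lap2 siRNA in 0.3% FBS (median log2FC -0.16), 6 lower and 0 higher in 15% FBS (median -0.14), beside 18.6% of all genes lower in 0.3% and 12.1% in 15% FBS. Srgap1, which acts downstream of Robo receptors, fell by 1.15 in 0.3% FBS (adjusted p = 2.7e-12) and by 0.51 in 15% FBS (adjusted p = 4.3e-05). The tyrosine kinase Fes fell by 1.04 and 0.62 (adjusted p = 1.7e-11 and 2.5e-06). Fnbp1, which couples membrane curvature to actin assembly, was the 1 gene of the list that rose in 0.3% FBS, by 0.40 (adjusted p = 2.9e-05).

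Gas5, the non-coding snoRNA host, had small changes, of opposite direction with Lap2 siRNA in the serum conditions. It is ENSMUSG00000053332, on the plus strand of chromosome 1 from 161034422 to 161038539, annotated as a processed transcript. Gas5 had 8141, 7993 and 8350 normalized counts in serum-starved and 7159, 7111 and 7518 in stimulated control cells. Lap2-depleted cells had 8128, 6476 and 7035 in 0.3% FBS and 8408, 8338 and 8809 after serum. In control cells the serum-stimulated libraries all lay below the serum-starved ones, and in Lap2-depleted cells all lay above them. The serum response was -0.17 with control siRNA, which did not pass (95% interval -0.30 to -0.03, edgeR adjusted p = 0.057), and 0.24 with Lap2 siRNA (adjusted p = 0.005). Their difference, the interaction of 0.41 (standard error 0.09, 95% interval 0.22 to 0.60), passed (adjusted p = 0.0026) and kept passing under every alternative, with values from 0.31 to 0.47.

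The single comparisons of Gas5 depended on scaling and on single libraries. For serum with control siRNA the adjusted p ranged from 2.1e-05 to 0.21 over the alternatives, and it passed with total counts (-0.38), upper-quartile scaling (-0.26), each other filter on low counts, the replicate block (-0.17), the fit of only the 2 groups (-0.17), and without replicate 1 of the serum-starved Lap2-depleted group (-0.16). For serum with Lap2 siRNA the value was 0.01 with total counts and 0.13 with upper-quartile scaling, and 0.15 without replicate 2 of the serum-starved Lap2-depleted group (adjusted p = 0.10), none of which passed. Lap2 siRNA in 0.3% FBS gave -0.18 (adjusted p = 0.035) with groups that overlapped, since replicate 1 of the Lap2-depleted group, which stood apart, lay among the control libraries. Without that library the value was -0.26 (adjusted p = 0.00012). It did not pass without any of replicates 1, 2 and 3 of the control group (-0.17, -0.17 and -0.15), without replicate 2 or 3 of the Lap2-depleted group (-0.09 and -0.15), with total counts (-0.07), with upper-quartile scaling (-0.16) or in the fit of only the 2 groups (-0.19). In 15% FBS Lap2 siRNA gave 0.23 (adjusted p = 0.01), not passing without replicate 1 or 2 of the control group (0.21 and 0.22) or replicate 3 of the Lap2-depleted group (0.19).

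Of 14 other snoRNA host genes, 11 were tested. With Lap2 siRNA in 0.3% FBS, where Gas5 fell, 7 of them were higher, with a median log2FC of 0.50, beside 17.8% of all genes higher, Snhg12 was lower (-0.32, adjusted p = 0.0049) and 3 did not pass. In 15% FBS 5 were higher and 0 lower, with a median of 0.23, beside 11.4% higher. Of those 5, the calls of Snhg5 (0.35), Snhg15 (0.39) and Snhg17 (0.32) in 15% FBS were each lost without single libraries, to as little as 0.31, 0.34 and 0.23. That of Snhg15 was also lost with DESeq2 (adjusted p = 0.063) and with some other filters on low counts (edgeR adjusted p = 0.051 and 0.054). In 0.3% FBS the groups of Snhg20 overlapped, and its call was lost without replicate 2 or 3 of the control group (0.41 and 0.50). Snhg1, whose introns carry several C/D box snoRNAs, had 1188 ± 22.8 (SD, n = 3) normalized counts in starved control cells and 1801 ± 217 in Lap2-depleted ones (log2FC 0.60, adjusted p = 9e-08), and after serum it had 984 ± 49.8 and 1345 ± 80.6 (log2FC 0.45, adjusted p = 3.6e-05). Snhg17 and Snhg15 rose by 0.85 each in 0.3% FBS (adjusted p = 3.2e-08 and 1.2e-05). Snhg8, which shares the TOP-like start with Gas5, had a log2FC of -0.00 in 0.3% FBS (adjusted p = 0.99) and 0.06 in 15% FBS (adjusted p = 0.73). It was named for its sequence.

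With serum, 4 of the 11 host genes fell and 0 rose in control cells, and 5 fell and 0 rose in Lap2-depleted cells, where Gas5 rose, beside 13.9% and 14.9% of all genes lower. Snhg5 fell by 0.64 and 0.72 (adjusted p = 2.8e-06 and 1.9e-07), and Snhg1 by 0.27 and 0.42 (adjusted p = 0.0067 and 3.8e-05). Of the 10 snoRNA entries inside Gas5, 0 had a count in any of the 12 libraries, so the snoRNAs themselves were not measured here. Nonsense-mediated decay, the pathway that degrades spliced Gas5 RNA when it is translated, had 8 listed factors, of which 2 rose (Upf3b and Smg5) and 1 fell (Smg6) with Lap2 siRNA in 0.3% FBS, beside 17.8% of all genes higher and 18.6% lower, and Upf3b rose in 15% FBS as well. The call of Upf3b in 15% FBS was lost without replicate 1 or 2 of the control group or replicate 2 or 3 of the Lap2-depleted group (0.27 each). Upf3b rose by 0.45 in 0.3% FBS (from 588 to 799 normalized counts, adjusted p = 0.00016), and Smg6, an endonuclease of the pathway, fell by 0.53 (from 1317 to 916, adjusted p = 8.8e-07).

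Levels of the members were compared per kilobase of merged exon (RPKM, reads per kilobase, scaled to sequencing depth with TMM). In starved control cells the order was Gas1 at 634.5 ± 20.3 (SD, n = 3), Gas5 at 102.9 ± 2.26, Pmp22 at 88.9 ± 3.13, Gas6 at 61.9 ± 1.32, Gas7 at 44.7 ± 2.11 and Gas2 at 25.2 ± 0.67, and no neighbours overlapped. The same order without overlap held after serum. In Lap2-depleted cells Gas1, Gas5 and Pmp22 kept the first 3 places, and the lower end of the order changed. In 0.3% FBS, Gas2 (36.4 ± 2.17) and Gas7 (34.3 ± 3.71) overlapped each other and Gas6 was lowest (22.7 ± 1.15). In 15% FBS, Gas6 (32.2 ± 3.12), Gas7 (31.9 ± 1.06) and Gas2 (31.2 ± 2.35) overlapped with their neighbours, so their order was not resolved. With the longest transcript as the length in place of merged exons, Gas7 stood above Gas6 in all groups. The merged exons of Gas5 (3760 bases) include the stretches of its snoRNA entries, and its longest transcript has 2556 bases. A shorter length would raise its level, so its place and its distance from Gas1 depend on the length used.

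**Figure D4:**
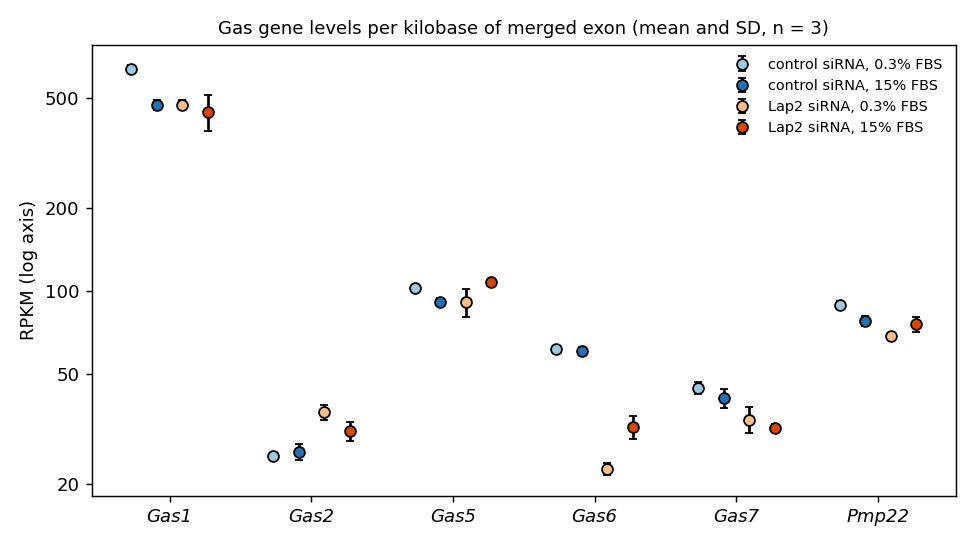
RPKM (vertical log axis) of each Gas gene in the 4 groups, as the mean and SD of 3 libraries. Per kilobase of merged exon, Gas1 stood highest in all groups, from 444.7 to 634.5. Gas6 went from 61.9 with control siRNA to 22.7 with Lap2 siRNA in 0.3% FBS.

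The genes whose pattern over the 12 libraries was most like that of each member were found by the root mean square (RMS) difference of log2 CPM centred on each gene's mean, among 10448 other genes with at least 100 normalized counts on average. For Gas6, which itself varied by an RMS of 0.62 about its mean, these were Crabp1 (0.07), a cytoplasmic retinoic acid binding protein, Smoc2 (0.08), a secreted calcium-binding matrix protein, and Atp5b (0.09), the beta subunit of mitochondrial ATP synthase. Smoc2 had mean normalized counts of 4527, 4613, 1651 and 2564 in serum-starved and stimulated control cells and in the corresponding Lap2-depleted cells, in that order. Gas1 (RMS 0.23 about its mean) was nearest to Zhx1 (0.07), Acox3 (0.08) and Zfp395 (0.09), and Pmp22 (0.14) to Aldh9a1, Cd99l2 and Vcam1 (0.05 each).

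Gas2 (0.22 about its mean) was nearest to Dap (0.05), with mean normalized counts of 4151, 4227, 5919 and 5007 in the same order of groups, Prpf31 (0.06) and Asna1 (0.06). Gas7 (0.21) was nearest to Ankfy1, Arhgap10 and Exoc4 (0.06 each). Gas5 (0.13) was nearest to Rpl3 (0.04), Eif3k (0.05) and Rpl21 (0.06), of which Rpl3 had 22700, 21090, 20980 and 24090. Between members, the smallest RMS differences were 0.148 for Gas1 and Pmp22, 0.151 for Gas5 and Pmp22 and 0.155 for Gas7 and Pmp22. The farthest pair was Gas2 and Gas6, with 0.83. These distances describe the same 12 libraries as the tests above, and a gene with little variation lies near many others.

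Several members overlap other annotated genes. The libraries were directional, but the strand setting of the counting and its handling of ambiguous reads were not given in the sources used here, so reads gained or lost through an overlap were not measured. On the opposite strand, Fancf shares 253 exon bases with Gas2 and had 4948 counts over the 12 libraries against 37621 of Gas2. Tmem255b shares 34 exon bases with Gas6 (54 counts against 28795), and Glp2r shares 66 with Gas7 (78 against 109488). On the strand of Gas5, the 10 snoRNA entries share 60 to 84 bases each with its merged exons and had 0 counts. Zbtb37 overlaps Gas5 on the opposite strand with 0 shared exon bases, and Pmp22 has no overlapping gene in GENCODE M21. Gm48488 shares 589 exon bases with Gas1 on the opposite strand and has no row of its own in the count files.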

How the data were processed

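RNA-seq of NIH 3T3 cells gave 12 libraries, grouped by the siRNA and the serum percentage in the labels. The authors depleted ribosomal RNA, aligned the reads with TopHat2 (default settings) to mm10, counted reads per gene with HTSeq and deposited these raw counts without normalization. Tool versions, the annotation and the strand setting are not given in the sources used here. Gene coordinates in the files matched GENCODE M21 for the 6 members and Tmpo, and 99.3% of the 49671 identifiers had a symbol.

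Genes were kept if 3 or more libraries had over 1 count, which left 18668, and were tested in R 4.3.3 with edgeR 4.0.16 (TMM, glmQLFit and glmQLFTest, a mean for each of 4 groups in a single fit), with Benjamini-Hochberg adjustment over all of them and a threshold of 0.05. Normalized counts are scaled to the mean TMM-adjusted library size of 21092260. Log2 CPM used a prior count of 2. The steps were tested on simulated data. Alternatives were DESeq2 1.42.0, total counts, upper-quartile scaling, 3 other filters, a fit without the other 2 groups, a replicate block, and leaving out each library. The exact permutation test of a single value with 3 libraries against 3 cannot go below p = 0.1 and was not used.

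Named genes were the 6 members, Tmpo, in each list at most 4 genes with the largest changes past the threshold with at least 100 normalized counts, Axl, Mertk, Tyro3, Cdon and Boc in any case, the 3 genes most like each member, and overlapping genes. Nearest neighbours of the members, also in the rule, are not reported, and neither is 1 gene of the decay list. Genes named outside this rule are those that count among 7 or fewer in a direction, Vkorc1, Vkorc1l1, Snhg8 and Gli1. The members and lists were chosen with earlier results of these data known. Sequences are from RefSeq, with windows for 5 of the 6 members. Scripts used Python 3.11.15, pandas 2.3.3, numpy 2.4.6 and matplotlib 3.10.9.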

Additional observations from a re-analysis of the deposited data

Results flagged for a closer look

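The effect of Lap2 siRNA differed between the serum conditions, by the interaction term of the edgeR fit (adjusted p under 0.05 over all 18668 genes), for 5 of the 6 members. Of all genes tested, 7.09% passed with a positive and 6.51% with a negative interaction. The interaction was 0.35 for Gas1, -0.28 for Gas2, 0.41 for Gas5, 0.53 for Gas6 and 0.33 for Pmp22, where a positive value means that the log2FC with Lap2 siRNA was higher in 15% than in 0.3% FBS. The calls of Gas5 and Gas6 held in all 19 alternatives, while that of Gas2 was lost in 7, that of Gas1 in 5 and that of Pmp22 in 1, and without replicate 2 of the serum-starved control group 2 members were left. The siRNA target Tmpo itself differed, with -0.79. Its RNA was at 38.4% of control in 0.3% FBS and at 22.2% in 15% FBS. These libraries do not measure Lap2 protein, and the part of this RNA difference in the members' interactions was not tested.

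Among the partner genes the interaction was 1.38 for Boc, 0.78 for Cdon and 0.33 for Smo (Hedgehog reception), 0.53 for Pros1 (TAM ligand), -0.73 for Gas2l3 and -0.38 for Dst (Gas2 relatives), -0.53 for Snhg17 and 0.41 for Snhg18 (snoRNA hosts), 0.36 for Smg6 and -0.32 for Smg5 (nonsense-mediated decay), and 0.65 for Srgap1 and 0.42 for Fes (F-BAR genes). Fibroblast markers differed as well, with 1.20 for Pdgfra, 0.79 for Col3a1, -0.61 for Fn1 and -0.38 for Thy1. The calls of Smo, Smg5, Smg6, Fes, Dst, Snhg17 and Snhg18 were each lost without some single library.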

How the results depend on the processing

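Of 594 values of the members under alternatives, 531 kept direction and side of the threshold, 32 lost the call, 17 gained it and 14 changed sign, and of 2502 values of the other named genes the numbers were 2383, 113, 2 and 4. The members called for serum with control siRNA numbered 2, or 5 with total counts and 4 with upper-quartile scaling, where the lower genes of all tested went from 2597 to 5847 and 3878. Leaving out each library gave 1 to 3 members for serum with control siRNA, 2 to 4 for Lap2 siRNA in 15% FBS, where the count was 2 without replicate 3 of the serum-stimulated Lap2-depleted group, and 2 to 5 for the interaction. The sign changed with total counts for Gas2 (-0.15), Tmpo (-0.0363) and Capn2 (-0.0167) in serum with control siRNA, for Pmp22 (-0.0896), Smo (-0.0206) and Capn2 (-0.0808) in serum with Lap2 siRNA, and for Gas1 (0.0095) and Pmp22 (0.0511) with Lap2 siRNA in 15% FBS. With upper-quartile scaling it changed for Gas2 (-0.0421) in serum with control siRNA. The interaction of Gas7 was -0.0035 with DESeq2 and -0.0022 with total counts, and ran from -0.0887 to 0.0693 with each library left out. Without replicate 3 of the serum-stimulated Lap2-depleted group, Gas1 turned to 0.0229 in serum with Lap2 siRNA and 0.0313 with Lap2 siRNA in 15% FBS, and with each library left out these ran from -0.1513 to 0.0229 and from -0.1418 to 0.0313. The cause was not tested. Replicate numbers follow the order of the labels within a group, and the labels name no pairs. The 18 correlations of same-numbered libraries lay between -0.03 and 0.04, and 4 of 18 were the best of their library. They were taken over all genes tested, including those with few reads, so they cannot exclude pairs. With the replicate block, 5509 genes were called for serum with control siRNA (5512 without), and 3 members, Gas5 entering at -0.17, while the interaction of Gas2 was -0.28 (adjusted p = 0.056). Without replicate 1 of the serum-starved Lap2-depleted group, 3529 genes were called for the interaction (2540 with it). For Lap2 siRNA in 15% FBS, 5177 genes were called without that library (4375 with it). The calls of members other than Gas5 and Gas7 did not change without that library. How far depth limits these values was not tested.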
